A study of Homo sapiens with 3 samples.

Results

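The genes described here encode the enzymes that clear superoxide and peroxides: the superoxide dismutases SOD1, SOD2 and SOD3, catalase (CAT), the glutathione peroxidases GPX1, GPX3, GPX4, GPX7 and GPX8, and the peroxiredoxin PRDX3. They are 10 of the 19775 genes named by a probe set of their own, chosen by symbol: every probe set whose annotation named exactly 1 of them and no other gene was taken, which gave 15 probe sets. The data were 3 expression microarrays of IMR-90 ER:Ras cells, a derivative of the established human lung fibroblast line IMR-90 that carries an inducible Ras fusion protein. The cells in oncogene-induced senescence (OIS) had received 100 nM 4-OHT, the drug that switches such a fusion protein on, for 6 days. The cells in replicative senescence (RS) had been passaged repeatedly over 10 weeks. The growing cells had no treatment, and all 3 cultures were of the same ER:Ras line, so the growing and RS cultures carried the fusion gene too. The promoter that drives it, and whether the line is 1 clone, are not stated in the labels.

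Superoxide, a by-product of respiration and the product of NADPH oxidases, is converted by superoxide dismutases to hydrogen peroxide, which catalase, glutathione peroxidases and peroxiredoxins then break down. The enzymes divide the cell between them: SOD1 works mainly in the cytosol, SOD2 and PRDX3 in mitochondria, catalase in peroxisomes, GPX7 and GPX8 in the endoplasmic reticulum, and SOD3 and GPX3 are secreted. GPX4 reduces lipid peroxides within membranes and thereby holds back ferroptosis, a form of cell death driven by iron. In fibroblasts, reactive oxygen species are produced downstream of oncogenic Ras and have long been studied as a contributor to senescence.

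Each condition had 1 array and no replicate, so conditions could not be tested against each other, no p-value is given, and precision is limited by having 3 arrays. Signals are MAS5 intensities, a background-subtracted summary of the probes of a set, and the arrays were alike in scale, with medians between 44.9 and 46.2. A floor of 45.5, the median over all values of the 3 arrays, replaced dimmer signals before ratios were taken, and a gene counted as measured when it was above the floor on at least 1 array. All 10 genes were measured, as were 13466 of the 19775 named genes (68.1%). Repeat readings existed only where another probe set of a gene lay on the array. Over the 6759 genes with such a pair, the SD of a log2 ratio per probe set was 0.36 when OIS was divided by growing, 0.33 when RS was divided by growing and 0.37 when OIS was divided by RS. Where both probe sets exceeded 1000 on every array, which held for 1296 genes, the SDs were 0.17, 0.16 and 0.17, and they cover probe error but not differences between cultures. The labels were checked on known genes: the signal of CDKN2A, the p16 locus, was 1040.0 in OIS and 1115 in RS, against 432.5 in growing cells, and that of the proliferation marker MKI67 was 143.1 in OIS and 193.6 in RS, against 814.8 in growing cells. The signal of HRAS was 11748 in OIS and 2553 in RS, against 7696 in growing cells, with the RS array lowest. Of the 9 genes on this list of state checks, 5 were higher and 3 lower in OIS, and 2 higher and 4 lower in RS, by 2-fold or more. All 10 fibroblast markers were above the floor on every array. Markers of other cell types were mixed and are described further below. PTPRC of blood cells, CDH1 of epithelium and CDH5 of endothelium were below the floor on every array. HBB of blood cells, KRT18 of epithelium and TEK of endothelium were above it on every array.

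The promoters of the 4 genes that passed 2-fold between any pair of arrays are printed because the results turn on these genes. The windows run from 250 bases before the start site to 50 bases after it on the gene's strand and come from RefSeq on GRCh38.p14, which held windows for 9 of the 10 genes. Capitals mark matches on either strand to 6 motifs: the antioxidant response element core TGACNNNGC, the GC box GGGCGG, the CCAAT box CCAAT, the FOXO site TGTTTAC, the TATA box TATAAA and the NF-kB site. SOD2 has 4 start sites in the table, and the most downstream is shown (chr6:159693192-159693491, minus strand). The SOD3 window is chr4:24795323-24795622, the GPX3 window chr5:151020341-151020640 and the GPX7 window chr1:52602121-52602420, all on the plus strand.
SOD2: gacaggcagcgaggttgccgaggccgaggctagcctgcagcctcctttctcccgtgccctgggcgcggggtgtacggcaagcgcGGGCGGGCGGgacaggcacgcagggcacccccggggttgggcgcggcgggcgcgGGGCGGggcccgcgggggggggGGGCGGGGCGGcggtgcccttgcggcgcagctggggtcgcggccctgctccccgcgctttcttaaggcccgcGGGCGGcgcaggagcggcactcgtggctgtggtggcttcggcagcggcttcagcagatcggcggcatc
SOD3: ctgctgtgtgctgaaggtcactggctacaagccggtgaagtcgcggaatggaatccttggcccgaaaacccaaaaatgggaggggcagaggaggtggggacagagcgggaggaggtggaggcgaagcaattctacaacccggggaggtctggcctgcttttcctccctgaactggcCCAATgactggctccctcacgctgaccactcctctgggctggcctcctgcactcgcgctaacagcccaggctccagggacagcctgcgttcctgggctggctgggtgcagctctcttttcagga
GPX3: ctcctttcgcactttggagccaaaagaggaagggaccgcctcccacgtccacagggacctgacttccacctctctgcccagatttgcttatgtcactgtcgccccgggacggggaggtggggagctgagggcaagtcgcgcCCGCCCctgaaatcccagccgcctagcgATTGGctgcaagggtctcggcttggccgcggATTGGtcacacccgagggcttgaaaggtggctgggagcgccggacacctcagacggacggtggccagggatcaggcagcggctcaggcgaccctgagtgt
GPX7: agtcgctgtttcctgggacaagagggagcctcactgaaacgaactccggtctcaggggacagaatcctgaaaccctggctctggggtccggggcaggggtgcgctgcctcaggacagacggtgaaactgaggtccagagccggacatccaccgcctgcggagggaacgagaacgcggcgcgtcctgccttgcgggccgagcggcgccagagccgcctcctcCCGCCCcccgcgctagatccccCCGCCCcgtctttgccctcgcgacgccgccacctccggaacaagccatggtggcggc

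The printed SOD2 window held 6 GC boxes, of which 2 pairs overlap each other, and no match to the other motifs. The SOD3 window held a single CCAAT box, 74 bases before the start site, and no GC box. The GPX3 window held 1 GC box and 2 CCAAT boxes, and the GPX7 window 2 GC boxes. Among the windows not printed, that of CAT held 5 CCAAT boxes and 1 GC box, and that of GPX8 held no match to any of the 6 motifs. Over all 14 windows of the 9 genes, GC boxes were in 12 and CCAAT boxes in 7 (several windows belong to 1 gene), against 45% and 34.6% of the 35116 windows in the table. The antioxidant response element core was in none of the 14 windows, against 13.3% of all windows. The NF-kB site, the FOXO site and the TATA box were likewise in none, against 11.3%, 3.42% and 11.5%. These letters describe the 300 bases searched and not sites further away. The share of G and C ranged from 43.0% in GPX8 to 79.0% in the most downstream of the 3 windows of GPX4, against a median of 58.7% over all windows.

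**Figure D1:**
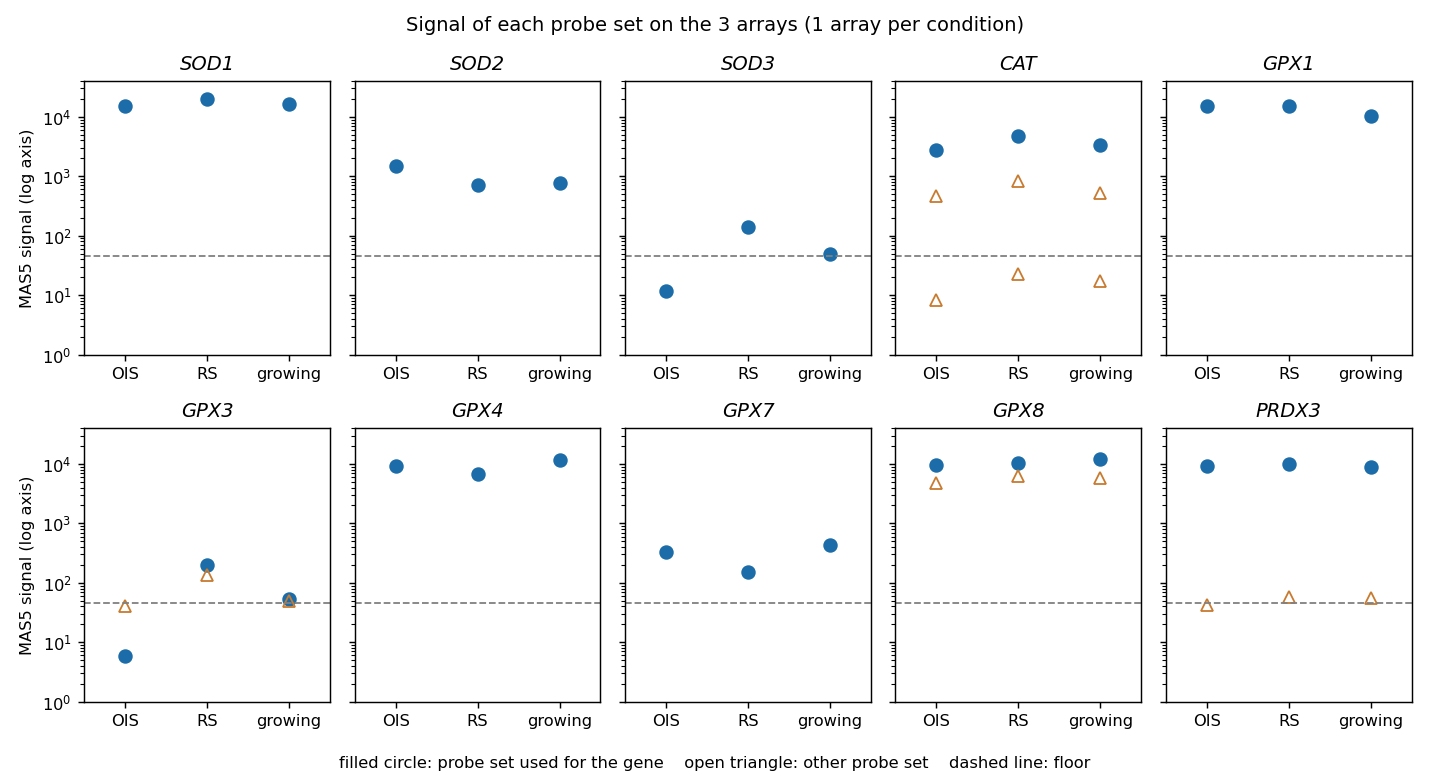
MAS5 signal on a log axis of every probe set of the 10 genes on the OIS, RS and growing arrays, 1 array each. Filled circles are the probe set used for the gene, open triangles its other probe sets and the dashed line the floor of 45.5, and SOD3 and GPX3 are below it in OIS and above it in RS.

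OIS was first compared with growing cells, to ask which of these enzymes differ once Ras has been switched on. Among the 8 members above the floor in both, SOD2 differed most, 1.99-fold higher in OIS, GPX1 was 1.48-fold higher and the rest lay within 1.32-fold of growing cells. SOD3 and GPX3 were below the floor in OIS, so their differences are bounds and cannot be ranked with these. No member was called 2-fold different in either direction, 0 of 10 higher and 0 of 10 lower. Of all measured genes, 4.92% were higher and 6.63% lower by that size. At 1.5-fold 1 member was higher, SOD2, and none lower, against 11.7% and 14.8% of all measured genes. SOD3 and GPX3 could not be called lower at either size, since their growing signals of 48.7 and 53.6 lie close to the floor. The counts of lower members therefore rest on the 8 others. The median log2 ratio of the members was -0.18 and that of all measured genes 0.00. Each array read the RNA of a whole culture. Fewer cells that make an RNA and less of it per cell therefore cannot be told apart, here and below.

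SOD2, the manganese superoxide dismutase of mitochondria and a known target of NF-kB, had a signal of 1513 in OIS, against 759.3 in growing cells. The OIS array was the highest of the 3. Its log2 ratio of 0.99 was within rounding of the 2-fold line and reached 1.05 after quantile normalization, where it passed it. Among all measured genes 11.7% had a ratio at least as far from 0. This value rests on a single probe set. A further 4 probe sets name SOD2 together with SOD2-OT1, a transcript overlapping the locus, and so fall outside the rule used here. Of these, 3 were bright, with OIS signals of 12063, 8062 and 6454, against 3681, 2943 and 1760.3 in growing cells, which is 3.28-fold, 2.74-fold and 3.67-fold higher. Which of the 2 genes those signals come from cannot be told apart on these arrays.

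**Figure D2:**
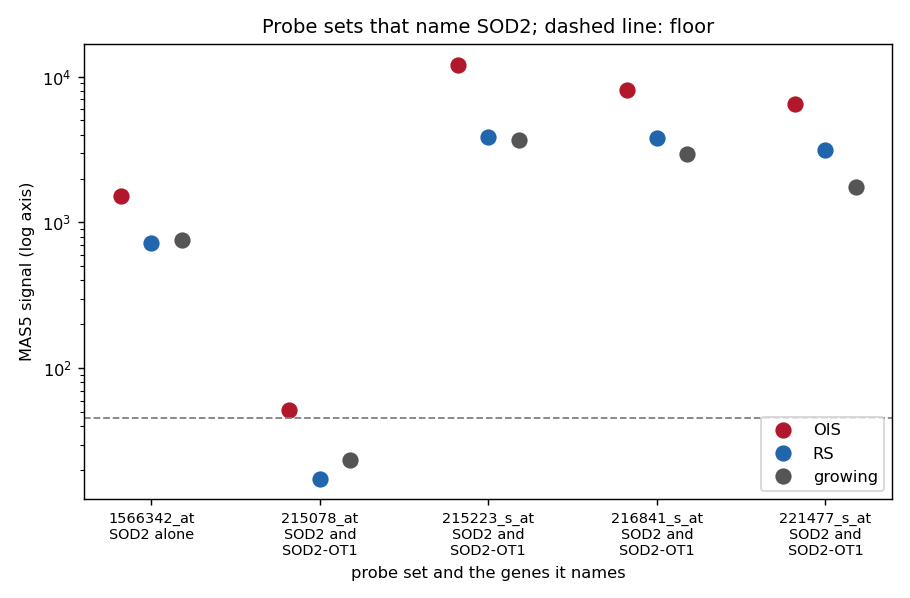
MAS5 signal on a log axis of the 5 probe sets that name SOD2, alone or together with SOD2-OT1, on the OIS, RS and growing arrays. The OIS array has the highest signal in all 5, and the dimmest set is at 51.9 in OIS and below the dashed floor of 45.5 on the RS and growing arrays.

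The other dismutases gave smaller differences or bounds. SOD1, the copper and zinc dismutase of the cytosol, had a signal of 14950.2 in OIS, against 16172 in growing cells, 1.08-fold lower. That difference of 0.11 on the log2 scale is smaller than the probe error of bright genes. SOD3, the secreted dismutase that binds to the extracellular matrix, was at 11.7 in OIS, below the floor, against 48.7 in growing cells, just above it. The OIS signal gives only a bound, at least 1.07-fold lower. A floor at the 25th percentile of all values gave SOD3 a log2 ratio of -2.06, so its size here depends on how dim signals are treated.

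CAT, which encodes catalase, had a signal of 2779 in OIS, against 3375 in growing cells, 1.21-fold lower. Its second probe set above the floor read 469.8 in OIS, against 524.4 in growing cells, 1.12-fold lower. Both therefore placed OIS slightly lower, and the remaining probe set was below the floor on every array.

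Among the peroxidases, GPX1 and PRDX3 were the higher ones in OIS by the probe set used for the gene. GPX1, the abundant selenium-containing glutathione peroxidase of cytosol and mitochondria, had a signal of 15401 in OIS, against 10399 in growing cells. Its log2 ratio of 0.57 is over 3 times the probe error of bright genes, and 18% of the 4454 genes above 1000 on every array had a ratio at least as far from 0. PRDX3, the mitochondrial peroxiredoxin, had a signal of 9253 in OIS, against 8745 in growing cells, 1.06-fold higher. Its dim second probe set was at 41.9 in OIS, below the floor, against 56.6 in growing cells, so the direction was not shared.

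GPX4 had a signal of 9207 in OIS, against 11691 in growing cells, 1.27-fold lower. GPX7, a peroxidase of the endoplasmic reticulum that passes oxidising equivalents to protein disulfide isomerase, read 324.7 in OIS, against 429.1 in growing cells, 1.32-fold lower. GPX8, its membrane-bound relative, read 9413 in OIS, against 12052 in growing cells, 1.28-fold lower, and a second probe set of GPX8 was 1.21-fold lower. GPX3, the secreted glutathione peroxidase best known from plasma, read 5.9 in OIS, below the floor, against 53.6 in growing cells, a bound of at least 1.18-fold lower. GPX4, GPX7 and GPX8 were thus lower in OIS by small amounts, while the size for GPX3 is not known beyond its bound. The log2 differences of the 3 measured on both arrays, between 0.34 and 0.40 in size, compare with a probe error of 0.36 over all genes and 0.17 over bright genes.

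RS was next compared with growing cells, to ask which members differ after repeated passage. The secreted enzymes GPX3 and SOD3 were higher in RS, 3.74-fold and 2.85-fold, and GPX7 was 2.80-fold lower and GPX4 1.75-fold lower. Past 2-fold, 2 of 10 members were higher and 1 of 10 was lower, against 3.72% and 5.58% of all measured genes. At 1.5-fold the same 2 members were higher and 2 lower, GPX7 and GPX4, against 10.5% and 13.2% of all measured genes. The median log2 ratio of the members was 0.24, that of all measured genes was 0.00, and 6 of 10 members lay above 0. RS and OIS are compared with the same growing array, so an error in that array enters both comparisons.

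**Figure D3:**
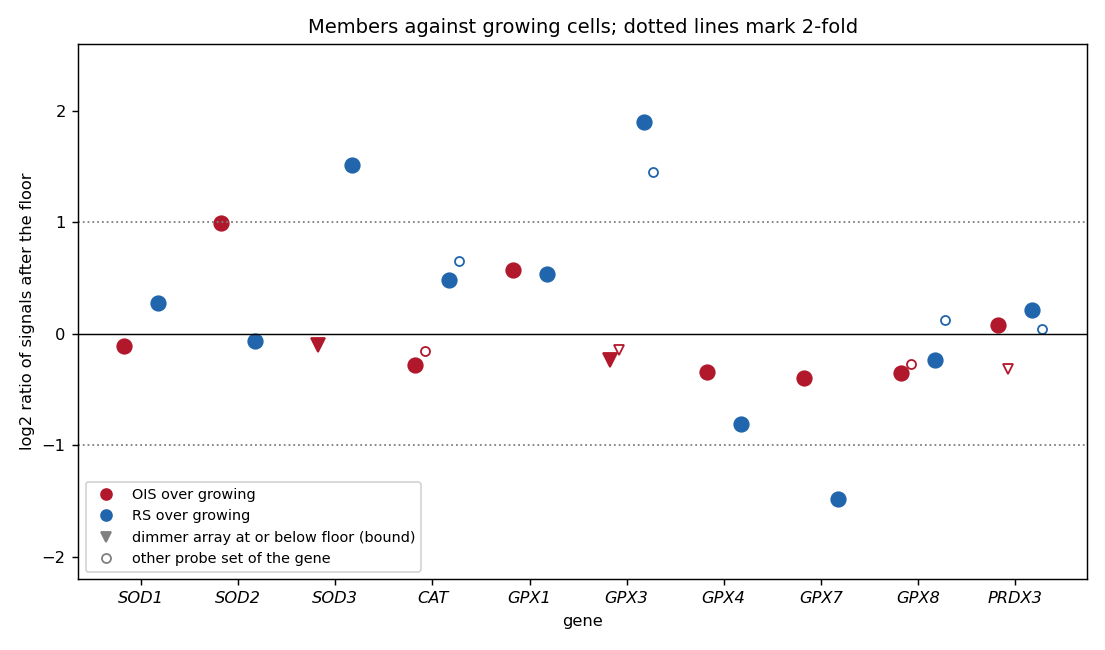
Log2 ratio of signals for OIS over growing and RS over growing cells, by gene. Filled symbols are the probe set used for the gene, small open symbols its other probe sets, triangles ratios bounded by the floor and dotted lines 2-fold; SOD3 and GPX3 lie above the upper line in RS, GPX7 below the lower line in RS, and SOD2 next to the upper line in OIS.

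GPX3 had a signal of 200.5 in RS, against 53.6 in growing cells. A second probe set of GPX3 read 137.2 in RS, against 50.3 in growing cells, 2.73-fold higher. Both probe sets placed RS above growing cells, and only 2.06% of all measured genes had a ratio as far from 0 as that of the first. SOD3 had a signal of 138.8 in RS, against 48.7 in growing cells. The growing signals of both genes stood just above the floor of 45.5, and a floor of 88.8, the 60th percentile of all values, brought the log2 ratio by its construction to 1.18 for GPX3 and 0.64 for SOD3. The 2-fold call of SOD3 ended there, and that of GPX3 did not. SOD3 was read by a single probe set of the kind that can hybridise to several transcripts (its name ends in _x_at), so no second reading of it was to hand.

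GPX7 had a signal of 153.2 in RS, against 429.1 in growing cells, from a single probe set above the floor on every array. GPX4 had a signal of 6678 in RS, against 11691 in growing cells. Its log2 ratio was -0.81, and 5.97% of the genes above 1000 on every array lay at least as far from 0. The RS array was the lowest of the 3 for both genes. GPX8 did not share this: it was 1.18-fold lower in RS by the probe set used and 1.09-fold higher by its second, so its direction was not settled.

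CAT read 4703 in RS, against 3375 in growing cells, 1.39-fold higher, and its second probe set read 823.4 in RS, against 524.4 in growing cells, 1.57-fold higher. The RS array was the highest of the 3 for both probe sets. GPX1 read 15102 in RS, against 10399 in growing cells, 1.45-fold higher. SOD1 was 1.21-fold higher in RS at 19593, and PRDX3 1.16-fold higher at 10109, against 16172 and 8745 in growing cells. SOD2 was close to growing cells, at 724.9 in RS and 759.3 in growing cells, 1.05-fold lower. The bright probe sets that name SOD2 together with SOD2-OT1 were 1.04-fold, 1.28-fold and 1.78-fold higher in RS.

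The third comparison set OIS directly against RS cells. The growing array entered it only through the floor, the filter for measured genes and the choice of probe set. SOD2 and GPX7 were higher in OIS, 2.09-fold and 2.12-fold, while SOD3 was at least 3.05-fold lower. GPX3 was at least 4.41-fold lower by the probe set used and at least 3.02-fold lower by its second, which read 40.0 in OIS against 137.2 in RS. With a pseudocount of 16 in place of the floor the second probe set became the brighter and stood for GPX3. The log2 ratio of -1.45 is that of the second probe set, and the set behind the 4.41-fold bound was not read without the floor. Under the 60th percentile floor SOD3 was at -0.64, short of 2-fold. With the floor of 45.5, 2 of 10 members were higher and 2 of 10 lower by 2-fold or more, against 5.48% and 5.27% of all measured genes. At 1.5-fold CAT joined the lower members, at 1.69-fold, which made 3, and the higher members stayed at 2, against 12.4% higher and 13% lower of all measured genes. The median log2 ratio was -0.13 for the members and 0.00 for all measured genes.

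The 3 arrays can be ordered in only 6 ways, so some of the 10 genes had to share an order. In 4 of them, SOD1, SOD3, CAT and GPX3, the signal was highest in RS, intermediate in growing cells and lowest in OIS, an order that 17.6% of all measured genes had. In GPX4 and GPX7 it was highest in growing cells, intermediate in OIS and lowest in RS, as in 16.2% of all measured genes. The second probe sets of CAT and GPX3 followed the order of the first. For SOD1 the step between OIS and growing cells was within probe error, and for SOD3 and GPX3 its OIS end was below the floor. GPX1 had nearly equal signals in OIS and RS, 1.02-fold apart, both above growing cells.

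The genes most like each member past 2-fold against growing cells were found by the Euclidean distance of the pair of log2 ratios against growing cells, among 11295 genes above the floor on all 3 arrays (11294 for GPX7, which is itself among them). The pair of SOD3 was -0.10 and 1.51, and the nearest genes were PCDHB16, RAB6B, DSP, PDE1C and MAN1C1, at distances between 0.05 and 0.12. The pair of GPX3 was -0.24 and 1.90, with PAX8-AS1, CCDC81, MEG3, HSD17B6 and GHR nearest, at 0.09 to 0.28. The first number of both pairs is bounded by the floor. The pair of GPX7 was -0.40 and -1.49, with ADORA2B, B3GALT2, NQO1, NFIA and ZNF300 nearest, at 0.07 to 0.13. NQO1 encodes a quinone reductase that NRF2 induces, and its signal was 11680.2 in OIS and 5822 in RS, against 15100.3 in growing cells.

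The wider antioxidant system was described by 11 lists of 159 genes in all, of which 123 were measured. Against growing cells, 9 of the 123 were higher and 5 lower in OIS by 2-fold or more, and 4 were higher and 1 lower in RS. These shares of 7.32% and 4.07% in OIS and 3.25% and 0.81% in RS stand beside the 4.92% and 6.63%, and the 3.72% and 5.58%, of all measured genes. The same shares of all measured genes apply to the counts of each list below, which hold few genes. The median over the 123 genes was 0.10 in OIS and 0.07 in RS on the log2 scale. For OIS over RS cells 11 were higher (8.94%) and 5 lower (4.07%), beside 5.48% and 5.27% of all measured genes, with a median of -0.03.

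The relatives of the 10 enzymes differed little. Of 4 measured relatives, the peroxiredoxins PRDX1, PRDX2, PRDX4 and PRDX6, none passed 2-fold in either state, with medians of 0.01 in OIS and 0.20 in RS. PRDX2 had the widest difference, 12650 in OIS against 9476 in growing cells. GPX2 and GPX5 were below the floor on every array. Of the 13 measured genes of the thioredoxin and glutaredoxin system none passed 2-fold in OIS, with a median of -0.04, and 1 was higher in RS, with a median of -0.10. That gene was TXNIP, an inhibitor of thioredoxin, at 8829 in RS against 3418 in growing cells, 2.58-fold higher.

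Genes that supply glutathione and NADPH, the reductants of the peroxidases, had medians below 0 in both states, -0.40 in OIS and -0.30 in RS over 13 measured genes. At least 2-fold lower was 1 of 13 in each state, SLC7A11, the cystine transporter that feeds glutathione synthesis. Its signal was 4332 in OIS and 3719 in RS, against 8674 in growing cells, 2.0-fold and 2.33-fold lower. None was at least 2-fold higher. GCLC, the catalytic subunit of the first enzyme of glutathione synthesis, had the highest ratios of the list, 1.43-fold higher in RS and a log2 ratio of 0.41 in OIS.

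The metals of the dismutases are brought in by transporters and chaperones, and of 13 measured genes 2 were higher in OIS by 2-fold or more and none lower, with a median of 0.35. These were SLC11A2, a transporter of iron and manganese, at 3004 in OIS against 1275 in growing cells, 2.36-fold higher, and the copper importer SLC31A1 at 5204 in OIS against 2596 in growing cells, 2.0-fold higher. SLC39A14, which carries zinc and manganese, was 1.89-fold higher in OIS. CCS, the copper chaperone of SOD1, read 705.6 in OIS and 635.9 in RS, against 594.1 in growing cells. In RS the median was 0.12 and 1 gene was higher, SLC39A8, at 127.0 in RS against 15.2 in growing cells, at least 2.79-fold.

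Glutathione peroxidases such as GPX1, GPX3 and GPX4 contain selenocysteine, which needs machinery of its own. Of 9 measured genes of selenoprotein synthesis 2 were at least 2-fold lower in OIS and none in RS, with medians of -0.14 and -0.17. SEPHS1 read 658.7 in OIS and 825.4 in RS, against 1559 in growing cells, and PSTK, the kinase that acts on the charged tRNA, read 121.1 in OIS and 173.5 in RS, against 251.4 in growing cells. SEPHS2 had the highest OIS ratio of the list, 1.31-fold higher. It read 4377 in OIS and 2969 in RS, against 3347.5 in growing cells. Of 14 other selenoproteins none passed 2-fold in OIS and 2 were higher in RS, with medians of 0.13 and 0.25. SELENOW was 4.18-fold higher in RS, at 8529 against 2042 in growing cells, and DIO2, a deiodinase that activates thyroid hormone, was 2.10-fold higher. The RS signals of SELENOW and GPX4, both selenoproteins, thus lay on opposite sides of growing cells.

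Around GPX4, 10 measured genes of lipid peroxide control had medians of 0.17 in OIS and 0.14 in RS, with none past 2-fold against growing cells. AIFM2, a GPX4-independent suppressor of ferroptosis, read 1264 in OIS and 548.5 in RS, against 1033 in growing cells, so that it was 2.30-fold higher in OIS than in RS. ACSL4, which prepares the lipids that are prone to peroxidation, read 3888 in OIS and 1999.5 in RS, against 2483 in growing cells. DHODH, a mitochondrial enzyme of pyrimidine synthesis that also protects against ferroptosis, had the lowest OIS ratio of the list, at 103.7 in OIS and 133.4 in RS, against 206.6 in growing cells. LPCAT3, which inserts polyunsaturated fatty acids into phospholipids, was 1.43-fold lower in OIS and 1.24-fold higher in RS. Around catalase, 15 measured peroxisome genes had medians of -0.09 in OIS and 0.11 in RS. EHHADH, an enzyme of peroxisomal beta-oxidation, was the 1 gene past 2-fold, 3.28-fold lower in OIS at 72.1 against 236.3 in growing cells. Around GPX7 and GPX8, 11 measured genes of oxidative folding had medians of 0.17 in OIS and 0.13 in RS. The oxidase ERO1B was 2.85-fold higher in OIS, at 546.8 against 191.7 in growing cells, and none passed 2-fold in RS.

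**Figure D4:**
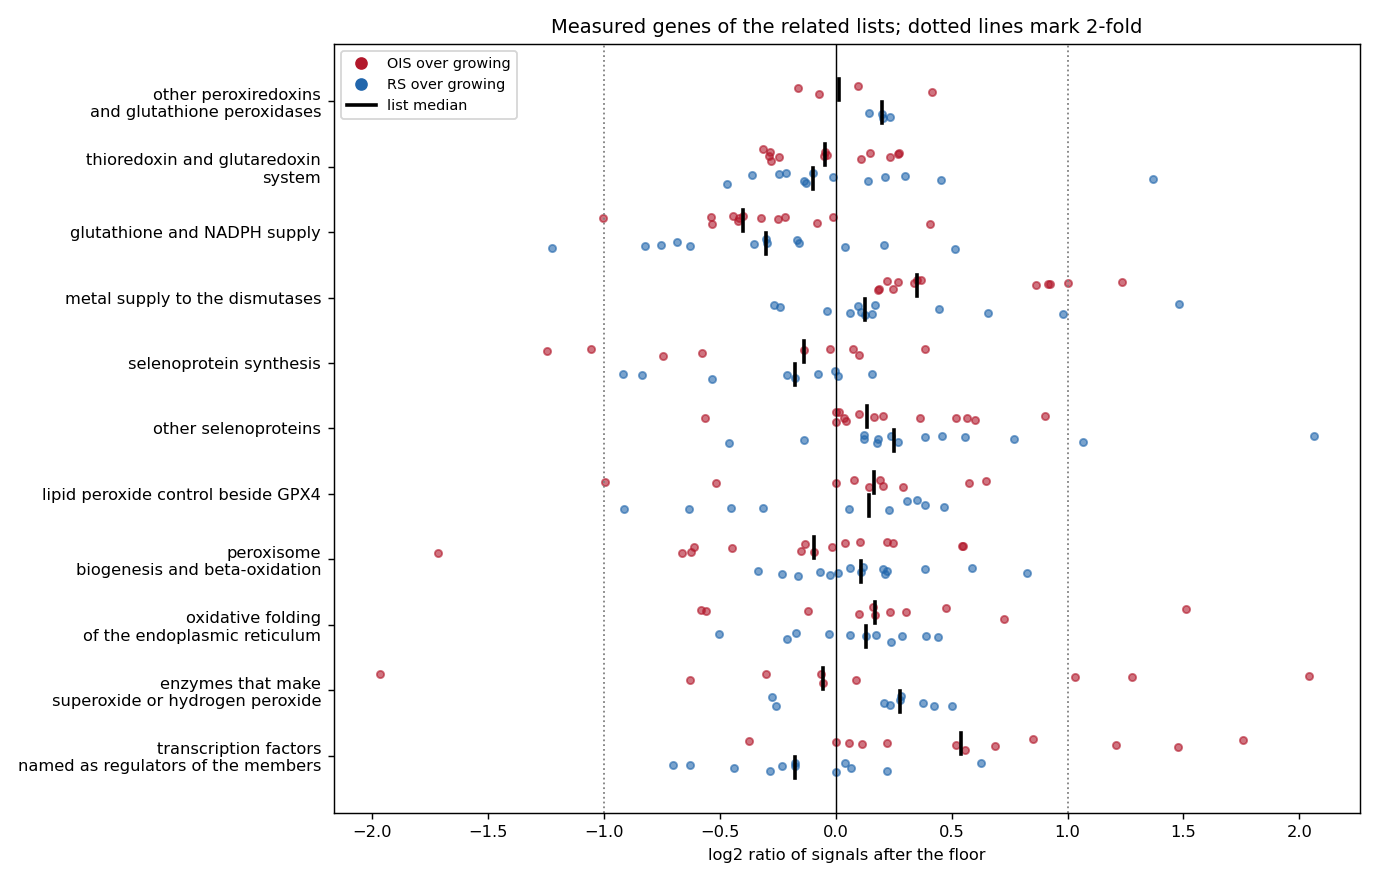
Log2 ratios of the measured genes of the 11 related lists, for OIS over growing cells (upper row of each list) and RS over growing cells (lower row). Each point is 1 gene, the black bars are list medians and the dotted lines 2-fold; genes of glutathione and NADPH supply have medians of -0.40 and -0.30, and metal supply genes a median of 0.35 in OIS.

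Enzymes that make superoxide or hydrogen peroxide were listed together with partner proteins of these enzymes. Of the 24 listed genes 21 had a probe set of their own, and most were dim, with 9 measured. At least 2-fold higher in OIS were 3 of the 9 and at least 2-fold lower 1, with a median of -0.05. NOX4, an NADPH oxidase that releases hydrogen peroxide, read 1139.7 in OIS and 665.1 in RS, against 469.8 in growing cells, 2.43-fold higher in OIS. Its membrane partner CYBA read 3669 in OIS and 2408 in RS, against 1795 in growing cells, 2.04-fold higher in OIS. RAC2, a small GTPase of the phagocyte oxidase, read 7031 in OIS and 2007 in RS, against 1707 in growing cells, 4.12-fold higher in OIS, while CYBB, the catalytic subunit of that oxidase, was below the floor on every array. AOX1, an aldehyde oxidase, read 259.1 in OIS and 1225 in RS, against 1010.1 in growing cells, 3.90-fold lower in OIS. In RS none passed 2-fold and the median was 0.28.

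Of 12 measured transcription factors and regulators tied to these enzymes, 3 were higher in OIS by 2-fold or more and none lower. Of all measured genes, 4.92% were higher and 6.63% lower by that size. The median of the list was 0.54 in OIS. It depends in part on the choice of genes, since the NF-kB subunits and NFKBIA on the list were all above growing cells. None of the 12 passed 2-fold in RS, with a median of -0.17. NFKB1, a subunit of NF-kB, read 1279 in OIS and 490.3 in RS, against 552.9 in growing cells, and the NF-kB inhibitor and target NFKBIA read 5830.1 in OIS and 1287 in RS, against 2093 in growing cells. PPARGC1B, a coactivator of mitochondrial genes, was at least 3.38-fold higher in OIS, at 153.8 against 27.1 in growing cells. NFE2L2, which encodes NRF2, read 11455 in OIS and 8687 in RS, against 10584 in growing cells, and its inhibitor KEAP1 read 1324 in OIS and 1126 in RS, against 1322 in growing cells. REL and RELB, further NF-kB subunits, were 2.79-fold and 2.18-fold higher in OIS than in RS. Not all subunits differed so: NFKB2 was 1.39-fold higher in OIS than in RS, and RELA was nearly equal, at 1479.3 in OIS and 1477.4 in RS. FOXO3 was 1.29-fold lower in OIS, while the dim FOXO4 was 1.47-fold higher in OIS and 1.54-fold higher in RS. SOD2, by the probe set that names it alone, and NFKB1 were both higher in OIS and near growing cells in RS. The bright probe sets that name SOD2 together with SOD2-OT1 were 1.04-fold, 1.28-fold and 1.78-fold higher in RS. A link between SOD2 and NFKB1 was not tested.

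Markers of other cell types were set beside these values. The summed signal of 7 endothelial markers was 2159 in OIS and 2252 in RS, against 1492 in growing cells, with 4 of 7 above the floor on each array. Most of this sum was TEK, at 1275 in OIS and 2033 in RS, against 1251 in growing cells. The endothelial markers ROBO4, PECAM1 and VWF were at least 2-fold higher in OIS, whereas CDH5, KDR and CLDN5 were below the floor throughout. The 9 epithelial markers summed to 3293 in OIS and 6563 in RS, against 3472 in growing cells, mostly from KRT18 at 2963 in OIS and 6010.1 in RS, against 2987 in growing cells. Above the floor were 4 of them in OIS, 4 in RS and 5 in growing cells, and EPCAM was at 49.1 in OIS and 194.2 in RS, against 157.1 in growing cells. The 6 blood cell markers with a probe set summed to 431.1 in OIS and 359.8 in RS, against 338.5 in growing cells. The 10 fibroblast markers summed to 146700 in OIS and 164800 in RS, against 153800 in growing cells, a sum carried by bright collagens and VIM. Within it, DCN read 7746 in OIS and 22971 in RS, against 20075 in growing cells, and LUM read 10702 in OIS and 23798 in RS, against 13729 in growing cells. Both proteoglycan genes were thus highest in RS and lowest in OIS. So was the fibroblast marker THY1, at 3481 in OIS and 6393 in RS, against 5200 in growing cells. The epithelial markers EPCAM and KRT18 had this order too, KRT18 with nearly equal signals in OIS and growing cells. That order was shared with SOD1, SOD3, CAT and GPX3, and with 17.6% of all measured genes. The fibroblast markers COL3A1 and FAP had the reverse order, highest in OIS and lowest in RS. S100A4 was 3.21-fold higher in RS than in growing cells. The part of other cells in the values of GPX3, SOD3 or SOD2 was not tested.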

How the data were processed

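The authors measured RNA of 3 cultures on 1 Affymetrix array each. The deposited file gives each probe set 1 linear intensity. It was computed with MAS5, per the submitters' processing notes. Its version and settings are not stated there. Biotin-labelled cRNA was made from total RNA per the labels' protocols. MAS5 as usually run subtracts background and scales an array by 1 factor, and the trimmed means of the 3 arrays lay between 497.2 and 497.3, so a shift shared by every gene is hidden. No detection calls were used.

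Of 54613 probe sets, 41091 named 1 gene, 1801 several and 11721 none, and only the first kind was used for genes. Of these, 41037 matched the RefSeq table by identifier, with no symbol updated. Coordinates belong to the RefSeq promoter windows (GRCh38.p14) alone. Each column matched the labels of 1 sample, which gave its group.

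The 10 members and the 16 gene lists, markers included, were chosen with earlier results of these data known, as were the floor, the 2-fold size and the alternative settings. Signals under the floor (45.5) were set to it and log2 was taken. The probe set brightest by mean log2 signal stood for its gene. "At least" before a fold means that the dimmer array was at or below the floor. Genes named were all members, genes of each list past 2-fold in the comparison described and otherwise at most 2 of its highest and 2 of its lowest, and the 5 genes nearest to each member past 2-fold against growing cells. The genes added beyond this rule (CCS, NFE2L2, KEAP1, FOXO3, FOXO4, RELA, NFKB2, SLC39A14, CYBB and the state and cell type markers) were named after their values were seen. The spread between probe sets is the SD of the difference of the ratios of a gene's 2 brightest probe sets, divided by the square root of 2. With single arrays no test could be made. The steps were tested on simulated data. Alternatives were quantile normalization, ratios centred on the median gene, a floor at the 25th (11.7) or 60th percentile (88.8), a pseudocount of 16 without a floor, dim genes kept, a gene's median over its probe sets, leaving out probe sets ending in _s_at or _x_at, and 1.5-fold in place of 2-fold. Python 3.11.15 was used with pandas 2.3.3, numpy 2.4.6 and, for figures, matplotlib 3.10.9.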

Additional observations from a re-analysis of the deposited data

Results flagged for a closer look

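The probe sets that name SOD2 together with SOD2-OT1 were used for no gene, and 3 of them had a signal at least 2-fold above that of growing cells in OIS. The brightest of the 3 in OIS read 12062.6 in OIS and 3841.3 in RS, against 3680.5 in growing cells. The next read 8061.5 in OIS and 3769.0 in RS, against 2943.1 in growing cells. The last read 6453.8 in OIS and 3133.6 in RS, against 1760.3 in growing cells. Their log2 ratios of OIS over growing cells were 1.71, 1.45 and 1.87, beside 0.99 for the 1 probe set that names SOD2 alone.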

How the results depend on the processing

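Each condition had 1 array, so no replicate could be left out. No paired analysis was possible because each group held 1 array and the results come from no test. The member median for RS over growing cells, 0.24, was 0.07 without _s_at and _x_at probe sets, and that for OIS over growing cells, -0.18, lay between -0.31 and -0.06 over the alternatives. Centring on the median gene and keeping dim genes could move no member. A moved floor could not change members above it on all arrays. A median over probe sets could not change members with 1 probe set. Leaving out _s_at and _x_at probe sets could not change a gene whose brightest probe set has another ending. Many of the identical ratios counted next were therefore fixed in advance. Of 234 recomputed member ratios 161 were identical to those reported, 62 moved by less than the probe error and 11 by more, and these 11 were all of SOD3 or GPX3, whose signals lie near the floor. For OIS over growing cells, 1 member was at least 2-fold higher after quantile normalization (SOD2), and 1 was at least 2-fold lower under the 25th percentile floor or with a pseudocount, SOD3 in both, with log2 ratios of -2.06 and -1.22. Under the 60th percentile floor 1 member was at least 2-fold higher in RS than in growing cells and 1 lower in OIS than in RS. The same counts of 1 and 1 were obtained without _s_at and _x_at probe sets, where SOD3 and GPX1 had none left and 8 members remained. At 1.5-fold 1 member was higher in OIS than in growing cells and 2 were lower in RS. Under the 25th percentile floor, and also with the pseudocount, the second probe set of GPX3 became the brighter by mean log2 signal. It then stood for the gene, with RS over growing ratios of 1.45 and 1.21 in place of 1.90. The OIS over RS ratios were -1.78 and -1.45 in place of -2.14. These values of GPX3 thus come from another probe set and not from the first one read in another way. Signals near the floor limit SOD3 and GPX3 in OIS to bounds. Probe error, with SDs of 0.16 to 0.17 for bright genes, leaves small log2 differences unsettled. The RS over growing ratio of GPX8, for instance, was -0.23 by the probe set used and 0.13 by its second. Larger differences are not settled by this either, because the variation between cultures was not measured.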
